A study of Mus musculus with 5 samples.

Results

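The simple repeats of a repeat-expression table were described by the length and base composition of their motifs in mouse NIH3T3 fibroblasts with and without activation of LINE-1 promoters. Every entry of the table whose name is a motif followed by n, such as _CTGT_n, was taken as a simple repeat, without reference to its values. This gave 17171 names of 18538 in the table, and the other 1367 are transposon subfamilies and further repeats. Changes were tested for the 603 names whose mean reached 10 across the 5 libraries. All libraries came from NIH3T3, an established mouse embryonic fibroblast line, here carrying a stably expressed dCas9-based CRISPR activator, a catalytically dead Cas9 that raises transcription where a guide RNA takes it. RNA was collected 48 h after transfection with a plasmid encoding either a scramble guide, which has no intended target (2 libraries), or guides directed to LINE-1 promoters (3 libraries). Both groups therefore carry the activator and a transfected plasmid. The labels do not state whether the line is a clone, or whether replicates were separate cultures, so a p-value here covers the spread among these libraries alone.

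Simple repeats, or microsatellites, are tandem copies of a short motif that arise and change length mainly through slippage of DNA polymerase. They lie throughout the mouse genome, between genes, in introns and untranslated regions, and less often in coding exons, where they can encode runs or periodic stretches of amino acids. They have no promoter of their own in the sense that a LINE-1 element has, so their RNA is usually part of a longer transcript. Reads are pooled under a motif over all its genomic copies, so a name stands for many loci. A long array can be read in several starting letters and on either strand. Names such as _ATC_n, _TGA_n and _CAT_n therefore belong to the same motif class, meaning all rotations of a motif and of its reverse complement. The signal is per name and not per copy or per length, so levels of different names do not rank their transcription.

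Values are the authors' normalized reads, a linear signal. All values in the repeat table were whole multiples of the value of 1 read, within 0.0001 reads, and this gave 869941 to 1146936 reads per library. Simple repeats held 116876 and 134095 reads in the scramble libraries and 146014, 154453 and 132627 in the LINE-1 libraries. That was 13.4 to 13.9% of the repeat signal. Of the 17171 names, 14318 were listed at 0 in every library, 1280 had a mean above 0 and under 1, and 970 had a mean from 1 to under 10. The 603 tested names, 3.51% of all, held 96.7 to 97.4% of the simple repeat signal. Just outside the limit were _CACG_n with a mean of 9.96 and _GGTT_n with 9.96, and just inside were _CGCCCCT_n with 10.03 and _CCCA_n with 10.05. _CGCCCCT_n stood at no more than 3.64 in the scramble libraries and reached the limit only through the LINE-1 libraries.

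Detection fell steeply with motif length, taken as the number of letters in the name. A name that repeats a shorter unit, such as _AGCAGC_n, counts under its full length and in a class apart from that of _AGC_n. Of 19 names with 1 or 2 letters 17 were tested, of 63 with 3 letters 49, of 255 with 4 letters 102 and of 902 with 5 letters 83. Of 3075 names with 6 letters 268 were tested, of 11149 with 7 to 9 letters 83, and of 1708 longer names 1. Motifs of 6 letters held 44.0 to 46.0% of the simple repeat signal in each library and motifs of 3 letters 30.9 to 31.4%. The classes of _CTCCTC_n and _TGGTGG_n, which repeat units of 3 letters but count under 6, held 11050 and 10233 reads over the 5 libraries. By composition, 43 of 395 names without G or C were tested and 46 of 217 names made of G and C alone. Counts of 155 of 6077, 158 of 6494 and 201 of 3988 were tested for G+C shares above 0 and under 40%, 40 to 60%, and above 60 and under 100%.

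The guides' intended target was higher in the LINE-1 libraries. The young LINE-1 promoter-bearing subfamily L1MdTf_I had 329 and 313 normalized reads in the scramble libraries and 655, 717 and 643 in the LINE-1 libraries, a log2 change of 1.06 ± 0.10 (SE; limma adjusted p = 5.4e-07). Fibroblast markers were all above 0, and their summed level was 736944 to 790036 in scramble and 508607 to 532230 in LINE-1 libraries. The summed level of 4 leukocyte markers was 21.8 to 26.8 against 73.0 to 91.8, that of 3 epithelial markers 20.3 to 22.7 against 19.6 to 23.1, and that of 3 endothelial markers 34.3 to 55.4 against 54.8 to 60.2. The part of these shifts in the results below was not tested. In RNA from bulk cells, fewer cells of a type and less RNA per cell cannot be told apart.

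A smaller share of simple repeats than of other repeat names passed. After fitting all 1257 tested repeat names together with limma, 10 simple repeat names were higher and 13 lower in the LINE-1 libraries at an adjusted p below 0.05, 3.81% of the 603. The background over the whole table was 12.4% (9.39% higher and 3.02% lower), and among the 654 other names 108 were higher and 25 lower, 20.3%. The simple repeats had a lower median level, 38.0 normalized reads against 102 for the other names. Their share called was 2.30% at a mean under 50, 4.04% at 50 to under 500 and 12.3% at 500 or more. The part of level in the difference was not tested. The median log2 change of the simple repeats was -0.04 against -0.02 over all names tested, and 44.6% of the simple repeats were above 0. All 3 LINE-1 libraries lay above both scramble libraries for 88 simple repeats and below both for 115, together 33.7% against 40.6% over the whole table (21.4% above and 19.2% below). The split of the 23 calls depends on the scaling, since 14 rose and 11 fell under TMM rescaling, 19 and 5 with the totals of the repeat table, and 8 and 24 with the gene table's value of 1 read.

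The 10 names that rose had means of 10.03 to 217 over the 5 libraries, where the median tested name had 38.0. Together they held 0.320% of the simple repeat signal in the scramble libraries. The 13 that fell had means of 14.03 to 2601 and held 9.08%. The motifs of the largest changes are shown. Each line writes out a short tandem array of the named unit, 2 to 4 copies, 5′ to 3′, with G and C in capitals. The first 6 lines are the largest rises and the next 5 are among the 6 largest falls.
_AACCA_n, with a log2 change of 2.82, has the array: aaCCaaaCCaaaCCa
_AGCCAATGC_n, with a log2 change of 1.95, has the array: aGCCaatGCaGCCaatGC
_CGCCCCT_n, with a log2 change of 1.80, has the array: CGCCCCtCGCCCCtCGCCCCt
_CTCTGTG_n, with a log2 change of 1.22, has the array: CtCtGtGCtCtGtGCtCtGtG
_CTGT_n, with a log2 change of 1.21, has the array: CtGtCtGtCtGtCtGt
_CTGTCC_n, with a log2 change of 0.92, has the array: CtGtCCCtGtCCCtGtCC
_CCCATT_n, with a log2 change of -1.38, has the array: CCCattCCCattCCCatt
_AAATAA_n, with a log2 change of -0.90, has the array: aaataaaaataaaaataa
_GTCTGT_n, with a log2 change of -0.61, has the array: GtCtGtGtCtGtGtCtGt
_TTTTGT_n, with a log2 change of -0.42, has the array: ttttGtttttGtttttGt
_AATATA_n, with a log2 change of -0.40, has the array: aatataaatataaatata

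Of all 603 tested names 41.0% had a G+C share above 60%, 26.2% one of 40 to 60% and 32.8% one below 40%. Of the 10 rises, 5 were above 60%, 4 at 40 to 60% and 1 below 40%, with the first of these near the share of all names. Of the 13 falls, 8 were below 40%, 4 of them with no G or C at all, 4 were at 40 to 60% and 1 was above 60%. These small counts were not tested.

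The largest rise was that of _AACCA_n, a motif of 5 letters. It stood at 8.49 and 7.37 normalized reads in the scramble libraries and at 58.6, 62.4 and 64.3 in the LINE-1 libraries, which are 7 and 7 reads against 63, 80 and 61. Every LINE-1 library was far above both scramble libraries, and the LINE-1 libraries lay close together. The ratio of the means was 7.79 and the log2 change 2.82 ± 0.22 (SE), with an adjusted p from limma of 1.7e-07.

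_CTGT_n, a motif of 4 letters, stood at 41.2 and 41.0 normalized reads in scramble and 97.7, 104 and 88.6 in LINE-1 libraries, with no overlap between the groups. Its log2 change was 1.21 ± 0.16 (SE; limma adjusted p = 1.5e-05). _CTGTCC_n, whose letters begin in the same way, rose from 37.6 and 39.99 to 79.98, 60.8 and 84.4, a log2 change of 0.92 ± 0.18 (SE; limma adjusted p = 0.0011). _CTCTGTG_n rose from 6.06 and 11.6 to 26.0, 19.5 and 17.9, a log2 change of 1.22 ± 0.33 (SE; limma adjusted p = 0.017). In both names the groups were separate, and for _CTCTGTG_n the scramble libraries stood further apart in proportion than the LINE-1 libraries.

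The unit of 9 letters _AGCCAATGC_n stood at 4.85 and 8.42 normalized reads in scramble and 25.1, 24.2 and 34.8 in LINE-1 libraries, which are 4 and 8 reads against 27, 31 and 33. The groups did not overlap, and the log2 change was 1.95 ± 0.31 (SE; limma adjusted p = 0.00018). _CGCCCCT_n had 3.64 and 3.16 against 15.8, 11.7 and 15.8, which are 3 and 3 reads against 17, 15 and 15. Its log2 change was 1.80 ± 0.39 (SE), on few reads.

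Of the 10 rises 4 had a scramble mean under 10, namely _AACCA_n (7.93), _CTCTGTG_n (8.82), _AGCCAATGC_n (6.63) and _CGCCCCT_n (3.40), and so were tested only because their LINE-1 values were high. Without the filter, when every name above 0 was tested, limma gave them adjusted p-values of 1.5e-06, 0.034, 0.00052 and 0.0037.

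The other rises were smaller. _AAGAA_n rose from 50.9 and 45.3 to 83.7, 74.1 and 118 normalized reads, with the last of the LINE-1 libraries well above the others (log2 change 0.90). _CCGCC_n, the only called name made of G and C alone, rose by 0.69, _GCCCT_n by 0.51 and _CACCTC_n by 0.43 on the log2 scale. In each the groups were separate.

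Of the 13 falls 7 had a mean of at least 500, and their log2 changes lay between -0.42 and -0.31. _TTTTGT_n stood at 1713 and 1847 normalized reads in scramble and 1341, 1253 and 1412 in LINE-1 libraries, a log2 change of -0.42 ± 0.09 (SE; limma adjusted p = 0.0040). _AATATA_n, which has no G or C, fell from 1747 and 1898 to 1307, 1376 and 1465, a log2 change of -0.40 ± 0.09 (SE; limma adjusted p = 0.0056). Neither name overlapped between the groups, and in both the second scramble library was the highest of the 5.

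_TCATCT_n was the most abundant name to pass, with 3046 and 2980 normalized reads in scramble and 2376, 2215 and 2388 in LINE-1 libraries (log2 change -0.37; limma adjusted p = 0.0077). The unit of 9 letters _GGTCCCCCT_n fell from 201 and 226 to 153, 119 and 146, a log2 change of -0.62 ± 0.13 (SE; limma adjusted p = 0.0022). In both, every LINE-1 library lay below both scramble libraries, with the second LINE-1 library lowest.

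Of the low names, _CCCATT_n had the largest fall of all, from 27.9 and 17.9 to 10.2, 7.80 and 6.33 normalized reads, a log2 change of -1.38 ± 0.34 (SE; limma adjusted p = 0.0091). _AAATAA_n went from 29.1 and 33.7 to 14.9, 21.1 and 13.7, a log2 change of -0.90 ± 0.27 (SE; limma adjusted p = 0.028). _GTCTGT_n went from 55.8 and 61.0 to 42.8, 35.1 and 35.9, a log2 change of -0.61 ± 0.19 (SE; limma adjusted p = 0.034). These 3 names rested on 6 to 58 reads per library, and in _CCCATT_n the scramble libraries stood further apart than the LINE-1 libraries.

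The remaining falls lay between -0.38 and -0.31 on the log2 scale. They were _TCTCA_n (-0.38), _TATTTTA_n (-0.36), _TTT_n (-0.35), the unit of 9 letters _TCCTCATCA_n (-0.34), _ATC_n (-0.33) and _TGA_n (-0.31). In all 6 the groups were separate.

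**Figure D1:**
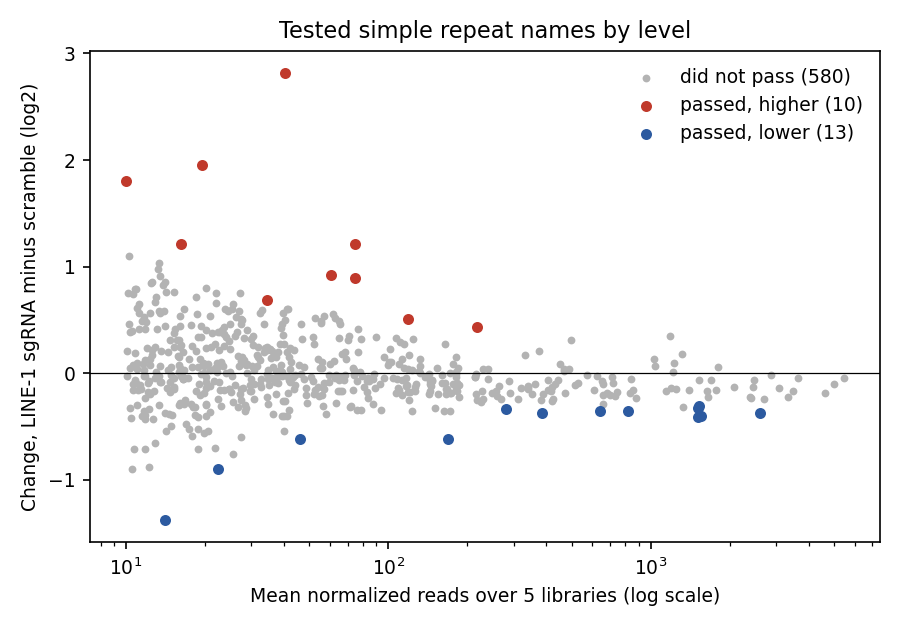
Log2 change of each of the 603 tested simple repeat names, LINE-1 minus scramble libraries (vertical axis, log2), against its mean normalized reads over the 5 libraries (horizontal axis, log scale). Points are names; the 10 that passed higher (red) all have means of 217 or less, while the 13 that passed lower (blue) reach 2601.

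The plot of change by level covers all tested names. Of the 348 names with a mean of 10 to under 50, 5 were higher and 3 lower, with a median log2 change of 0.05. Among the 198 with a mean of 50 to under 500, 5 were higher and 3 lower, with a median of -0.07. The 57 names with a mean of at least 500 had a median of -0.15. None was called higher by limma, edgeR or DESeq2, and 7 were called lower by limma, where 3.02% of the whole table was. In 33 of the 57 every LINE-1 library lay below both scramble libraries, against 19.2% over the whole table at all levels. Other repeat names were not split by level. With the totals of the repeat table as the scale, log2 changes move up by a median of 0.08. The limit of 10 was set on the mean over all 5 libraries, of which 3 are LINE-1 libraries, so low names that rose pass it more readily than low names that fell.

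Names of 1 motif class can be read from the same arrays, but no other tested name passed in the classes of the rises given here. The 2 other tested names of the _AACCA_n class, the rotation _AAACC_n and the reverse complement _TGGTT_n, had log2 changes of -0.32 (limma adjusted p = 0.491) and -0.11 (limma adjusted p = 0.916). _AAACC_n stood at 27.9 and 32.6 normalized reads in scramble and 21.4, 30.4 and 21.1 in LINE-1 libraries, where the groups overlapped. The 6 other tested names of the class of _CTGT_n ranged from -0.11 to 0.38, and none passed. The 8 of _AAGAA_n ranged from -0.33 to 0.61, and none passed. The single other tested name of the class of _CGCCCCT_n had a log2 change of 0.40 (limma adjusted p = 0.432), just without overlap between the groups. The rest of the 6 largest rises had no other tested name in their class, so the comparison could not be made for them.

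Among the falls, the class of _ATC_n and _TGA_n moved more evenly. Its other 4 names were _ATG_n (-0.32; limma adjusted p = 0.0501), _GAT_n (-0.29; limma adjusted p = 0.052), _TCA_n (-0.22) and _CAT_n (0.10), none below the threshold. The 9 others of _TCATCT_n ranged from -0.35 to 0.06 and the 8 others of _TTTTGT_n from -0.40 to 0.55, without a call.

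The 603 tested names form 238 motif classes, 112 with 1 tested name and 126 with more. How constant the split of a class's reads among its names was across libraries was measured by a chi-square of names by libraries, divided by its degrees of freedom, for which counting error alone gives about 1. Its median over the 126 classes was 0.979, and 23 classes were above 2. These include the class with the most reads, that of _AGC_n (3.88), and those of _CTT_n (4.87) and _GGCCGC_n (5.87). It was 8.49 for the class of _AACCA_n, the highest, and 8.28 for the class of _CGG_n and _CCG_n. Values as low as 0.0215, for the class that holds _TGGTGG_n and 2 further names, are far under counting error. The names of such a class are not separate observations, yet each enters the counts, shares and medians over names given here.

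Summing all names of a class and refitting gave 281 tested classes, of which 8 were higher and 8 lower, in a table where 17.5% of entries passed (13.4% higher and 4.17% lower). The sum of the _AACCA_n class rose by 0.75, that of _CTGTCC_n by 0.93 and that of _AGCCAATGC_n by 1.95 on the log2 scale. Those of _AATATA_n (-0.40), _TTTTGT_n (-0.32) and _CCCATT_n (-1.34) fell. The class that holds _CTGT_n did not pass. With each motif reduced to its shortest unit before summing, 8 classes were higher and 7 lower.

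By motif length, changes were small against the spread between names. The median log2 change was -0.11 for the 17 names with 1 or 2 letters, -0.05 for 49 names with 3, -0.02 for 102 with 4, 0.04 for 83 with 5 and -0.06 for 268 with 6. For the 83 names with 7 to 9 letters it was 0.21. Of these last, 3 were higher and 3 lower, and the 22 with a mean of at least 50 had a median of -0.05 against 0.27 for the 61 below 50. The median of 0.21 also fell to 0.10 without the first LINE-1 library and to 0.11 without the second scramble library.

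Calls by length were 0 higher and 3 lower of 49 with 3 letters, 1 and 0 of 102 with 4, 4 and 1 of 83 with 5, and 2 and 6 of 268 with 6. The falls with 3 letters were _TTT_n, _ATC_n and _TGA_n. Of the 17 names with 1 or 2 letters none passed with limma, edgeR or DESeq2, and 1 had an unadjusted p below 0.05.

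By composition, the median log2 change was -0.13 for the 43 names without G or C and 0.12 for the 46 names made of G and C alone. Between them it was -0.03, -0.07 and -0.0007 for names with G+C shares above 0 and under 40%, 40 to 60%, and above 60 and under 100%. Of the names without G or C 9.30% were above 0, and 4 passed as lower, namely _AATATA_n (-0.40), _TATTTTA_n (-0.36), _TTT_n (-0.35) and _AAATAA_n (-0.90). Of the names made of G and C 67.4% were above 0, and only _CCGCC_n passed. No test over the names of a class was made, because names can be read from the same arrays and all come from the same libraries.

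The difference between the ends of the composition range was not the same in each LINE-1 library. Against the scramble mean, names made of G and C alone had medians of 0.25, -0.08 and 0.23 in LINE-1 libraries 1, 2 and 3. Names without G or C had -0.35, -0.09 and -0.05. The second LINE-1 library was thus without a rise at the G+C end. Without the first LINE-1 library the median at the end without G or C was -0.01, and without the second the median at the G+C end was 0.24. The medians also moved with the scramble libraries. The median at the G+C end was 0.0505 without the first and 0.24 without the second, where the median at the other end was -0.0683. With the totals of the repeat table as the scale, the medians were 0.196 at the G+C end and -0.0398 at the other, and with the gene table's value of 1 read 0.0650 and -0.18.

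**Figure D2:**
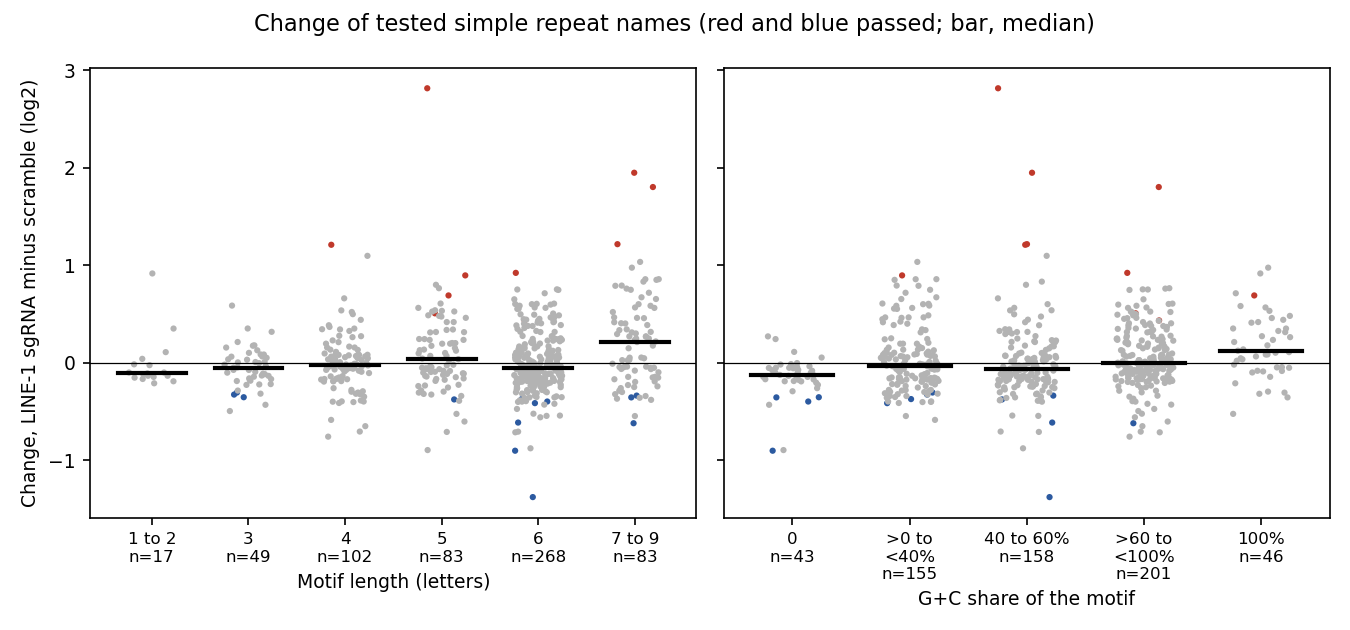
Log2 change of every tested simple repeat name (vertical axis), LINE-1 minus scramble libraries, by motif length in letters (left, without the single longer name) and by G+C share of the motif (right). Points are names, red and blue those that passed, and black bars are medians, which run from -0.13 without G or C to 0.12 at a G+C share of 100%.

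Summed over all 17171 names, the simple repeat signal was 141714 and 141133 in scramble and 135794, 120483 and 139878 in LINE-1 libraries. All 3 LINE-1 libraries were below both scramble libraries, and the mean was 6.63% lower. The second LINE-1 library carried much of this, since the mean was 2.54% lower without it. With the totals of the repeat table as the scale, the difference was -1.11%.

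By G+C share, the sum of names without G or C was 13625 and 14136 in scramble and 11772, 12187 and 13075 in LINE-1 libraries. The groups were separate, and the mean was 11.1% lower. Names with a share above 0 and under 40% were 11.2% lower, with separate groups, and those of 40 to 60% were 6.83% lower, also with separate groups. For names above 60 and under 100% the groups overlapped, at 5.44% lower. Without the second LINE-1 library these last 2 differences were -2.88% and -0.875%, and with repeat table totals -1.31% and 0.133%. Repeat table totals also brought the lower shares to -5.54% and -5.87%.

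Names made of G and C alone summed to 14372 and 14815 in scramble and to 16301, 12760 and 16552 in LINE-1 libraries. LINE-1 libraries 1 and 3 were above both scramble libraries and library 2 was below both, so the mean difference of 4.19% was far within the spread. It was 12.6% without the second LINE-1 library, 0.430% without the first and -0.429% without the third. Per unit of signal without G or C, the signal of names made of G and C was 1.05 and 1.05 in scramble and 1.38, 1.05 and 1.27 in LINE-1 libraries. The second LINE-1 library stood at the scramble level.

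By length, sums of names with 1 or 2, 3 and 6 letters were 6.61%, 7.38% and 8.32% lower with separate groups. For 3 and 6 letters the differences were -3.02% and -3.44% without the second LINE-1 library. With repeat table totals all 3 were smaller, at -0.820%, -1.94% and -2.97%. Those with 4, 5 and 7 to 9 letters differed by -0.528%, 2.35% and -0.685%, and the groups overlapped.

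**Figure D3:**
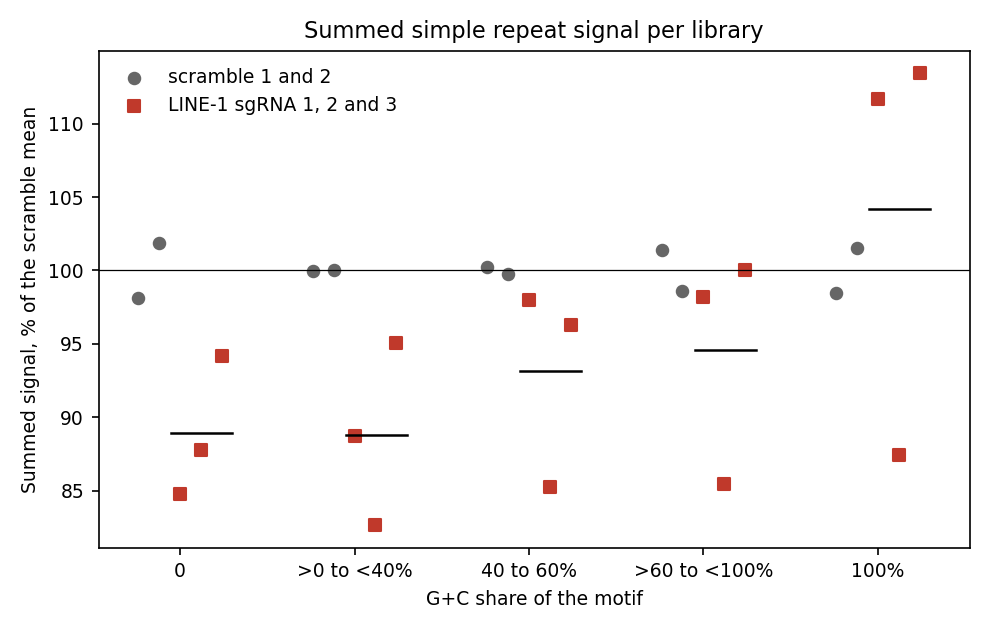
Summed signal of simple repeat names in each library (vertical axis, percent of the scramble mean) by G+C share of the motif. Grey circles are the 2 scramble and red squares the 3 LINE-1 libraries, and black lines are LINE-1 means, which are 11.1% lower without G or C and 4.19% higher at a share of 100%, where the second LINE-1 library lies below the others.

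Genes showed a gradient of the same direction with base composition. Ordered by the G+C share of their transcripts into 5 bins of 2856 or 2857 genes, cellular genes had median log2 changes of -0.12, -0.10, -0.06, -0.02 and 0.02 from the lowest to the highest share. In the single LINE-1 libraries the lowest and highest bins were -0.13 and 0.03, -0.08 and -0.01, and -0.13 and 0.04. Against their own mean, the scramble libraries had -0.03 and 0.02 (library 1) and 0.03 and -0.02 (library 2). The controls thus also differed from each other along the bins. Among the LINE-1 libraries the second had the narrowest range here too. The part of this gene gradient in the repeat values was not tested.

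Other features of composition separated the names weakly. Arrays that hold the dinucleotide CG had a median log2 change of 0.08 over 131 names. Of these, 2 were higher by limma, 1 by edgeR and 0 by DESeq2. None was lower by any of these tools. At an unadjusted limma p below 0.05, 19 were higher and 5 lower, against 45 and 41 of all 603 tested simple repeats. Arrays without CG had -0.05 over 472 names, 8 higher and 13 lower. Among names with a G+C share above 60%, the 122 with CG had a median of 0.09 and the 125 without CG one of -0.02. The 213 names with more A than T had a median of -0.02, the 304 with more T than A one of -0.05, and the 132 made of purines or pyrimidines alone one of -0.04.

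The most abundant names did not pass. The 8 highest held 22.6 to 23.5% of the simple repeat signal in each library, and limma, edgeR and DESeq2 called none of them, with 1 at an unadjusted limma p below 0.05. The highest was _GGCCGC_n, with 5607 and 5445 normalized reads in scramble and 5864, 4414 and 5918 in LINE-1 libraries, overlapping between the groups (log2 change -0.05). _T_n stood at 5091 and 5327 against 4843, 4623 and 5114 (-0.10). For _GCT_n (-0.19), _TGC_n (-0.17) and _CTT_n (-0.22; limma adjusted p = 0.155) the groups were separate but the change did not pass. _CCACGG_n (-0.05), _AGC_n (-0.14) and _CGG_n (-0.02) overlapped.

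Mononucleotide and dinucleotide repeats are the commonest microsatellites of mammalian genomes. The 17 tested names with no more letters than a dinucleotide gave no call, and 4 of them had a change above 0. Longer names that repeat such a unit count under their full length and lie outside the 17. Among these, _TTT_n, an array of T alone, passed as lower (-0.35; limma adjusted p = 0.017). _T_n (-0.10), its reverse complement _A_n (-0.13) and _TT_n (-0.19) changed in the same direction but did not pass. The reverse complements _CA_n, _TG_n, _AC_n and _GT_n, the motif used most in mouse genetic mapping, had log2 changes of 0.04, -0.03, -0.02 and -0.11. _A_n had -0.13, _AT_n -0.15, _TA_n -0.13, _GA_n -0.17, _TC_n -0.15, _AG_n -0.10, _CT_n -0.13 and _TT_n -0.19. _C_n had -0.21 and _GC_n 0.11. _G_n had 64.3 and 56.8 normalized reads in scramble and 90.2, 64.7 and 79.1 in LINE-1 libraries, just without overlap (0.35; limma adjusted p = 0.229). _CG_n had 10.9 and 6.31 against 17.7, 16.4 and 15.8, a log2 change of 0.92 ± 0.33 (SE; limma adjusted p = 0.082) on a few reads per library.

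Motif classes known from telomeres and human repeat expansions were also read out. Names that repeat such a unit, such as _AGCAGC_n and _CCGCCG_n, form classes of their own and are left out. The telomere motif TTAGGG and its rotations have 12 names in the table, none with a mean of 10, and they summed to 10.9 and 13.7 normalized reads in scramble and 13.02, 12.5 and 13.7 in LINE-1 libraries. The class of ATTCT, expanded in a spinocerebellar ataxia, has 10 names, none tested, and summed to 2.43 and 2.11 against 0, 0.780 and 2.11. The class of ATTCT was too low for a difference to be detectable at this depth. The sum over the TTAGGG class had a log2 change of 0.09 ± 0.29 (SE; limma adjusted p = 0.887) in the fit of summed classes.

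The class of CAG, which is expanded in Huntington's disease and encodes polyglutamine in coding exons, was the largest of these. It summed to 14768 ± 365 normalized reads (SD, n = 2) in scramble and 13425 ± 1182 (SD, n = 3) in LINE-1 libraries. Every LINE-1 library lay below both scramble libraries in this sum, and the 6 names of the class had log2 changes of -0.19 to 0.01. The class of CGG, expanded in fragile X syndrome, summed to 6893 ± 273 (SD, n = 2) and 7460 ± 962 (SD, n = 3), a difference within the spread. Its name _CCG_n had a log2 change of 0.35 with separate groups (limma adjusted p = 0.063), and its 5 others lay between -0.02 and 0.21.

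The class of GAA, expanded in Friedreich ataxia, summed to 7743 ± 62.1 (SD, n = 2) and 7091 ± 464 (SD, n = 3), with separate groups. The class of GGGGCC, expanded in a form of amyotrophic lateral sclerosis, summed to 231 ± 35.8 (SD, n = 2) and 229 ± 36.0 (SD, n = 3) with 3 of 11 names tested. That of CCTG, expanded in a myotonic dystrophy, summed to 197 ± 31.3 (SD, n = 2) and 201 ± 14.6 (SD, n = 3) with 6 of 8 names tested. Of the 27 tested names of these classes none passed with limma, edgeR or DESeq2, and 2 had an unadjusted limma p below 0.05.

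To relate names to cellular genes, the 141767 transcripts of GENCODE M21 (GRCm38) were searched on both strands for exact tandem runs of each tested motif of at least 15 bases and 2 copies. This search was chosen after the values were seen. The 23 called names have runs in transcripts of 1 to 2993 genes of the gene table. Among genes as a whole 43.5% passed in the gene table (18.2% higher and 25.4% lower). Runs of 6 called names lie in 10 genes or fewer, and 2 examples are shown, with the exact run in capitals, 12 transcript bases on either side in lower case, and the transcript strand read 5′ to 3′.
Plagl1, run of the _AGCCAATGC_n motif: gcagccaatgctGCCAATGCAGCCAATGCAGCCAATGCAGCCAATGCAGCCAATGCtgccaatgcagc
Npm1, run of the _TCCTCATCA_n motif on the opposite strand: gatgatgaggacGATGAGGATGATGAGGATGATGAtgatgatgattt

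Only Plagl1, which encodes a zinc finger transcription factor, carries such a run of the _AGCCAATGC_n motif. The run shown spans 44 bases of coding exon 8 on the plus strand, at chr10:13128030-13128073, and a further run of 35 bases lies at chr10:13128093-13128127. Plagl1 had 621 and 582 normalized reads in scramble and 1512, 1557 and 1587 in LINE-1 libraries, with no overlap. Its log2 change was 1.37 ± 0.07 (SE; limma adjusted p = 7.0e-11), against 1.95 ± 0.31 (SE) for the repeat name.

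For _TCCTCATCA_n, 7 genes carry a run. The most abundant were Npm1, encoding the nucleolar chaperone nucleophosmin, and Ptma, encoding prothymosin alpha, both proteins with acidic stretches. The Npm1 run spans 23 coding bases across exons 6 and 7, within chr11:33157043-33159950 on the minus strand. Npm1 fell from 30713 and 29116 normalized reads in scramble to 22007, 21515 and 22933 in LINE-1 libraries, by 0.43 on the log2 scale (limma adjusted p = 1.1e-05), and Ptma fell by 0.41. Zbtb22 fell by 0.19, Zranb1 had -0.03, and Ano2, at 5.35 and 0 normalized reads in scramble and 41.7, 50.02 and 60.4 in LINE-1 libraries, rose. Prr32 and Trap1a were too low to be tested. The repeat name fell by 0.34.

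Of the 4 genes with a _TCTCA_n run, Ntrk2, encoding a neurotrophin receptor, went from 3.21 and 0 normalized reads to 283, 268 and 260, whereas _TCTCA_n fell. Of the 4 genes with a _CGCCCCT_n run, Ano8 fell by 0.47, Arf4 had 0.03, Nufip2 rose by 0.24 and Flt4 had 0.82 (limma adjusted p = 0.164) on the log2 scale, where the name rose by 1.80. B3gat2, the only tested gene with a _CCCATT_n run, had 0.001 where the name fell by 1.38. The 190 genes with an _AACCA_n run summed to a log2 ratio of -0.10 and the 377 with a _CTGT_n run to -0.06.

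Over the 600 tested names with a run in some gene of the table, the change of the name and that of its genes' summed level had a Pearson correlation of 0.0803 and a Spearman correlation of 0.0829. Over the 81 names with 10 genes or fewer the Pearson correlation was 0.0842. The points share libraries and, within a class, genes and possibly reads, so these are descriptions only. Introns and regions between genes were not searched here.

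Leaving out single libraries and changing the scaling or the tool showed which calls depend on these choices. The refits reuse the same 5 libraries and, where a library was left out, the names chosen by the filter on all 5. They are therefore not independent support. Of the rises, _AACCA_n (log2 change 2.13 to 2.97 over settings), _CTGT_n (1.09 to 1.29), _AGCCAATGC_n (1.30 to 2.29) and _CTGTCC_n (0.82 to 1.06) passed in every setting in which they were tested, 15 to 17 settings each. _CGCCCCT_n also passed where it was tested. Among these names, the stricter filter left out _AACCA_n, _AGCCAATGC_n and _CGCCCCT_n, and the filter that weights both groups equally left out _CGCCCCT_n. DESeq2 gave _AGCCAATGC_n and _CGCCCCT_n no adjusted p and so called neither. No called name changed direction in any setting. Every fall was lost when the second scramble library was left out, with 6 rises and 0 falls left and 56 names at an unadjusted limma p below 0.05, where 4.93% of the whole table passed. In that fit the spread comes from the LINE-1 libraries, and the lone scramble library is assumed to vary like them. The 13 falls kept their direction there, with log2 changes of -1.69 to -0.33 and limma adjusted p-values of 0.0535 to 0.277. Without the first scramble library 6 rose and 2 fell, where 8.11% passed. Without LINE-1 library 1, 2 or 3, respectively, 8, 24 and 15 rose and 7, 12 and 16 fell. DESeq2 on recovered reads called 4 rises and 7 falls (8.27% of the whole table), a fit without a variance trend 6 and 2 (6.13%), and a fit without the filter on low values 14 and 6 (3.04%). _CCGCC_n and _TCCTCATCA_n were lost in 10 settings each, _TGA_n in 9 and _CACCTC_n in 8.

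**Figure D4:**
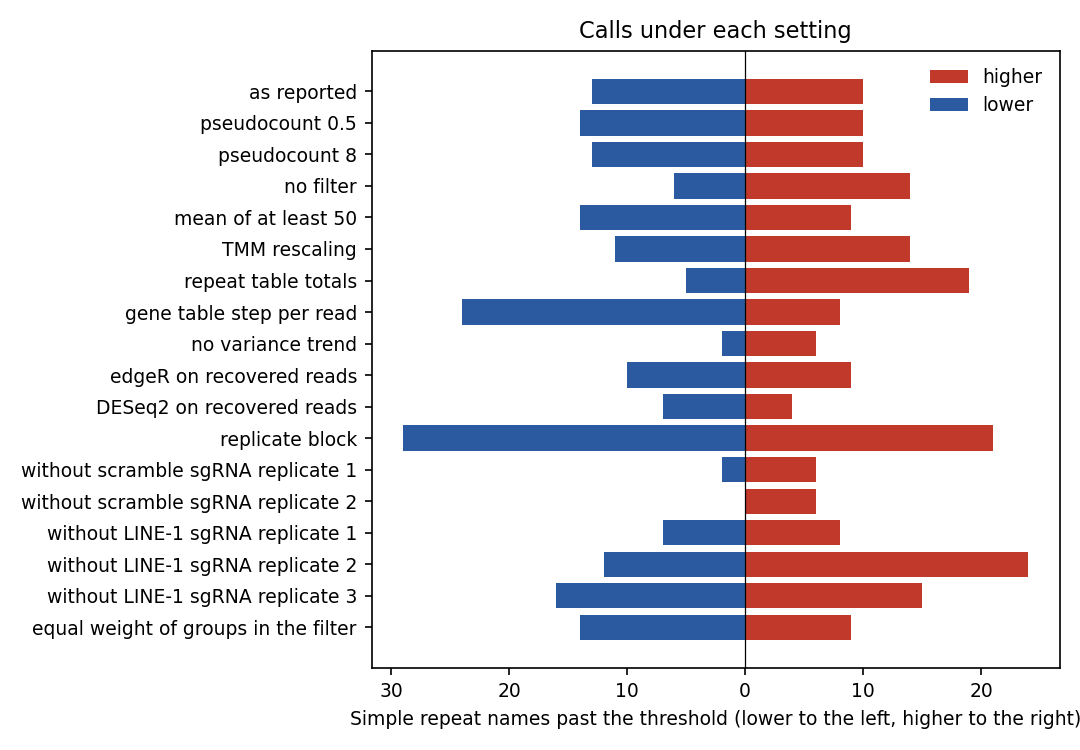
Number of simple repeat names past the threshold (horizontal axis) under each setting, lower to the left in blue and higher to the right in red. As reported, 13 were lower and 10 higher; without the second scramble library no name was lower, and without the second LINE-1 library 24 were higher.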

How the data were processed

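RNA-seq libraries of 5 NIH3T3 samples were used, grouped and numbered by their titles. The deposited values are a normalized signal that the authors made from RepEnrich repeat reads and gene reads, per the labels and file headers. Tools listed in the submitters' processing notes are DESeq2, SAMtools 1.9, bedtools 2.27.1, Bowtie2 2.2.9 and STAR 2.5.3a, and the builds listed are GRCm38 and mm10. What each tool did, strandedness and the handling of reads that match several repeats are not given there or in the labels. In every library 100% of repeat values were whole reads after division by the value of 1 read (0.780 to 1.21). Gene libraries held 30681384 to 45596490 reads. Read counts cover counting error only.

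All 1257 repeat names with a mean of at least 10 were fitted together with limma 3.58.1 (R 4.3.3) on log2(value + 1), with a variance trend and no further scaling. Adjusted p-values are Benjamini-Hochberg over all of them, with a threshold of 0.05. Fold changes are on the log2(value + 1) scale, which understates changes of low names. Genes were fitted in the same way in their own table. The ERV locus table was not used, and 1 of the 6 names with few run-carrying genes is not reported here at the level of genes. Names given are all that passed, the 8 with the highest means, all with 1 or 2 letters, and those of the 7 known motif classes. The members and lists were chosen with earlier results of these data known. Alternatives were other pseudocounts, filters and scalings, no trend, edgeR 4.0.16 and DESeq2 1.42.0 on recovered reads, a replicate block and leaving out each library; the fits were tested on simulated data.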

Additional observations from a re-analysis of the deposited data

How the results depend on the processing

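As reported, 10 simple repeat names rose and 13 fell, and 8 motif classes rose and 8 fell. Pseudocounts of 0.5 and 8 kept all 23 names. TMM rescaling gave 14 and 11 (21 of the 23 kept), edgeR on recovered reads 9 and 10 (19 kept), and DESeq2 4 and 7 (11 kept) with 2 classes higher. Without a filter 6 names fell and the median log2 change of all tested names was 0.0539. With a mean of at least 50 that median was -0.0933, the median for 7 to 9 letters -0.0458, and 2 classes rose. Repeat table totals gave 19 higher and 5 lower, a median of 0.0485, 0.29 for 7 to 9 letters, 5 classes lower, and sums of -0.820% (1 or 2 letters), 5.63% (4 letters), -5.54% (no G or C) and -5.87% (G+C above 0 and under 40%). The gene table's value of 1 read gave 24 lower, a median of -0.0880, 13 classes lower, and sums of -9.98% (1 or 2 letters) and -4.11% (4 letters). Without a variance trend 6 names rose and 2 fell, and 5 classes rose and 1 fell. The cause of these differences was not tested. These scalings shift the median of all names by 0.02 (TMM), 0.08 (totals) and -0.05 (gene table). Leaving out each replicate gave 6 to 24 names higher and 0 to 16 lower, 4 to 15 classes higher and 1 to 10 lower, medians of 0.10 to 0.26 for 7 to 9 letters, and -6.23 to 36.3% for the sum of names with 10 or more letters. The filter with equal weight for both groups, added after seeing the data, gave 9 higher and 14 lower. Same-numbered libraries deviated together weakly (correlations 0.05 and 0.12, 2 pairs), and the labels do not tie the numbers to a shared culture; with the replicate block, in which the third LINE-1 library has no partner, 21 names rose and 29 fell, the median for 7 to 9 letters was 0.13, and 14 classes rose and 17 fell. At 10 reads or fewer per library, as for _AACCA_n or _CG_n in scramble, depth limits the size of a change.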
